A study of Bos grunniens with 3 samples.

Results

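KRT85 and KRT35 are keratins of the hair shaft, and the cells described here were chosen by them. In each of 3 single-cell libraries of yak skin, a cell with at least 200 detected genes was taken as a KRT85+KRT35 cell where the unique molecular identifiers (UMIs, 1 for each captured RNA molecule) of both genes summed to at least 1% of its UMIs. There were 381 such cells among 38551, with 230 of 11987 in anagen, 86 of 12062 in catagen and 65 of 14502 in telogen. The hair cortex is the bulk of the hair shaft. Its cells arise from dividing matrix cells at the base of the follicle, leave the cell cycle under WNT and BMP signals, make keratins of the hair type (KRT85 and KRT35 early among them) and then keratin-associated proteins that bind these, and die as they harden. Around the shaft lie the inner root sheath, which makes KRT71, KRT25, KRT27 and KRT28, the companion layer and the outer root sheath, which makes KRT14, KRT5 and KRT17.

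The skin came from the scapula of Tianzhu white yak of about 2 years, was digested with dispase, after which hair follicles were pulled out and treated with trypsin, and was made into 1 10x Genomics library for anagen (hair growth), 1 for catagen (regression) and 1 for telogen (rest). The labels give no genotype and no treatment. The study names 3 yaks, for anagen and catagen, and does not tie them to the libraries, so an animal, a library and a stage cannot be told apart, no spread between animals can be given, and no p-value is given. The protocol text of the catagen library names anagen, so its stage rests on its title and its stage label. The libraries held 82862998, 51647865 and 103511775 UMIs. Each pair of libraries shared between 40 and 49 cell barcodes, and 0 barcodes of KRT85+KRT35 cells were shared.

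KRT85+KRT35 cells made up 1.92% of anagen cells (95% exact Clopper-Pearson interval 1.68 to 2.18%). In catagen the share was 0.713% (0.571 to 0.880%) and in telogen 0.448% (0.346 to 0.571%). In percentage points, catagen minus anagen was -1.21 (Newcombe interval -1.5001 to -0.921), telogen minus anagen -1.47 (-1.75 to -1.21) and telogen minus catagen -0.265 (-0.457 to -0.0822). Here and throughout, intervals take in only the counting error. The libraries also differed in depth, with a median of 5255, 3334 and 5569 UMIs in the remaining cells of anagen, catagen and telogen. The order anagen, catagen, telogen was the same in cells with at least 1000 genes, where the shares were 2.13%, 1.38% and 0.665%. With a threshold of 5% of UMIs, anagen and catagen had 8 cells each (0.0667% and 0.0663%) and telogen 0.

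**Figure D1:**
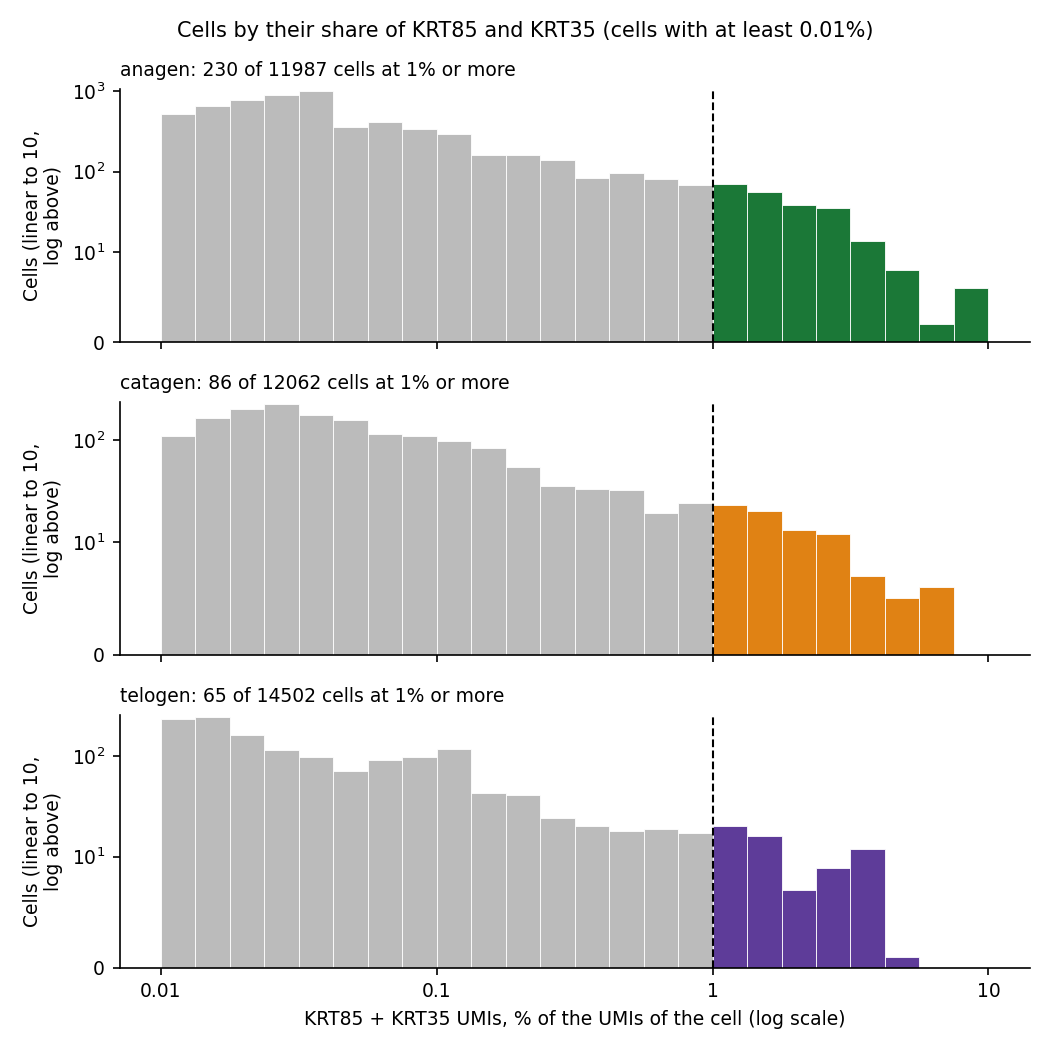
Number of cells (y axis, linear up to 10 and logarithmic above) by the percentage of a cell's UMIs that came from KRT85 and KRT35 (x axis, log scale) in each library, for cells with at least 0.01%. Coloured bars are the 230, 86 and 65 cells at or above the dashed line at 1%, and in each library the bars run on below the line without a gap.

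The cells formed the upper end of a continuous range and not a separate group. The 10 cells just above the threshold held 1.002 to 1.04% in anagen, 1.003 to 1.11% in catagen and 1.013 to 1.13% in telogen, and the 10 just below held 0.962 to 0.993%, 0.887 to 0.986% and 0.848 to 0.974%. The median among the chosen cells was 1.68, 1.80 and 1.71% and the highest value 8.67, 6.93 and 4.76%. KRT85 was found in all of them, and KRT35 in 199 of 230, 79 of 86 and 61 of 65. The chosen cells held 62.3, 73.4 and 70.3% of all UMIs of the 2 genes in the anagen, catagen and telogen libraries. As a background, the genes took 0.0162, 0.00195 and 0.00104% of the UMIs of cells with endothelial markers (55, 15 and 35 cells), which line vessels and make no hair keratin.

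The chosen cells were deeper than the remaining cells in all 3 libraries. Their median was 5621, 8158 and 12539 UMIs and 1602, 1905 and 2132 genes, against 1325, 927 and 1262 genes in the remaining cells. Their UMIs were therefore summed within each library and given as CPM, the count per 1000000 of a total that leaves out KRT85 and KRT35. A log2 ratio sets the CPM of the chosen cells over that of all remaining cells of the same library, with 1 CPM added to each, and a gene was called higher or lower from a ratio of 2-fold. Since the cells were chosen within this contrast, these ratios describe the cells and were not tested.

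Of genes at 10 CPM or more on either side, 756 of 6065 were higher in anagen (12.5%), 1228 of 6593 in catagen (18.6%) and 804 of 5814 in telogen (13.8%). Lower were 1004 (16.6%), 1271 (19.3%) and 1042 (17.9%). Of the 5380 genes described in all 3 libraries, 449 were higher in each (8.35%) and 623 lower in each (11.6%). The median log2 ratio over all genes described was 0.13, 0.20 and 0.12. With libraries scaled by the median of ratios, the log2 ratios would be lower by 0.25, 0.49 and 0.34 in the median, and the higher genes would be 27.9%, 24.98% and 27.1% of the calls in place of 43.0%, 49.1% and 43.6%. Genes at 8-fold or more in all 3 libraries and 50 CPM or more in the chosen cells numbered 37, of which 13 had no symbol.

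The leading genes are the 20 outside the gene lists with the highest ratio that held in all 3 libraries, among genes with a symbol at 50 CPM or more, and list genes are given with their lists. KAP11.1, a keratin-associated protein that binds hair keratins, came first. Its level was 180.5 in anagen, 619.9 in catagen and 289.9 in telogen, against 0.731, 1.55 and 0.127 CPM in the remaining cells, which gave log2 ratios of 6.71, 7.93 and 8.01. Few cells carried it: UMIs were seen in 23.0%, 29.1% and 32.3% of the chosen cells, and in telogen 1 cell held 79.9% of them, without which the level was 62.8 CPM and the log2 ratio 5.82.

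The next by that ratio were IL1F10, SPINK6 and LY6G6D. IL1F10, a cytokine of the interleukin 1 family, stood at 848 in anagen, 952 in catagen and 1389 in telogen against 8.12, 5.35 and 4.78 CPM (log2 6.54, 7.23 and 7.91) and was seen in 54.8%, 52.3% and 69.2% of the cells. SPINK6, a Kazal-type inhibitor of the kallikrein proteases of skin, stood at 741, 586 and 754 against 2.63, 6.44 and 7.69 CPM (log2 7.68, 6.30 and 6.44). It was seen in 16.1%, 15.1% and 24.6% of the cells. The 8 cells with a KRT85 and KRT35 share of 5% or more held 1153 of its 1531 UMIs in anagen and 347 of 409 in catagen, where cells at 1 to 2% stood at 2.79 CPM, under the remaining cells. In telogen 85.7% of its UMIs came from 1 cell, and without that cell the level was 117 CPM and the log2 ratio 3.76. LY6G6D, a membrane-anchored protein of the LY6 family, stood at 379, 577 and 429.8 against 3.14, 7.14 and 1.76 CPM, with 51.1% of its telogen UMIs in 1 cell. SERPINB13, an inhibitor of cathepsin proteases and lower in that order, had log2 ratios of 2.85, 5.83 and 3.52.

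Enzymes and transporters were also among the 20 leading genes. ALOX15B, a lipoxygenase, stood at 111 in anagen, 192 in catagen and 126 in telogen, against 0.905, 0.787 and 0.674 CPM in the remaining cells. ASS1, argininosuccinate synthase of the route to arginine, stood at 177 in anagen, 328 in catagen and 326 in telogen, against 6.17, 4.41 and 2.42 CPM (log2 4.63, 5.93 and 6.58), and was spread over 58.3%, 73.3% and 83.1% of the cells. SMPDL3B, a sphingomyelinase-like enzyme, had log2 ratios of 4.40, 5.43 and 5.54, and AK1, adenylate kinase, 3.81, 4.36 and 3.78. SLC40A1, the iron exporter ferroportin, had 4.16, 3.07 and 3.49, and FABP7, a fatty acid binding protein, 2.84, 3.74 and 5.04. At the 5% threshold FABP7 had 0.14 in anagen and 0.21 in catagen and no longer passed 2-fold. FABP7 differed among libraries more in the remaining cells, at 102, 20.03 and 16.0 CPM, than in the chosen cells, at 736, 279 and 558 CPM.

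The broadest of the leading genes was PDCD4, an inhibitor of translation initiation, which was seen in 99.1% of anagen, 94.2% of catagen and 65 of 65 telogen cells at 1446, 1656 and 1523 CPM against 179, 139 and 139 CPM. PPP2R1B, a scaffold subunit of protein phosphatase 2A, was seen in 90.0%, 88.4% and 90.8% at 615, 581 and 434 against 51.2, 37.3 and 31.1 CPM. The others of the 20 named by the rule were EFHD1, a calcium-binding protein of mitochondria (log2 5.27, 6.02 and 5.70), the ubiquitin ligase RNF34 (4.27, 4.67 and 4.75, turning to -0.50 in catagen at the 5% threshold), the actin-nucleating formin FHOD3 (3.98, 3.83 and 4.97), the zinc finger protein REPIN1 (3.40, 3.91 and 4.47), NIBAN1 (3.26, 3.70 and 3.01), the tyrosine phosphatase PTPRE (2.91, 3.43 and 3.75) and the transcription factor NFE2L3 (2.86, 3.31 and 2.87). Over these genes and the 3 libraries, the largest share of a gene's UMIs in 1 cell was 10.9%, for FHOD3 in telogen.

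**Figure D2:**
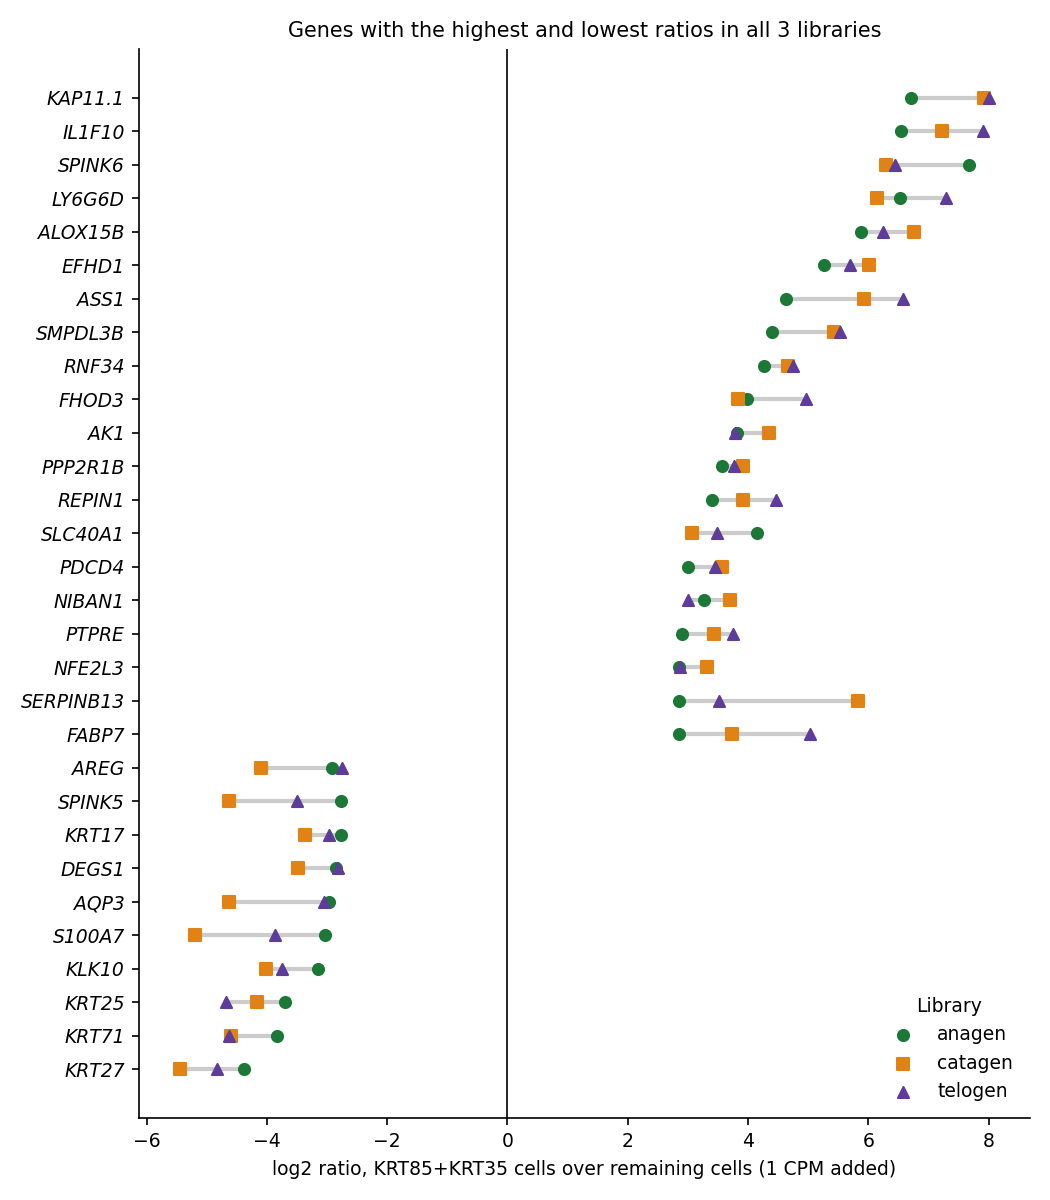
Log2 ratio of KRT85+KRT35 cells over the remaining cells of the same library (x axis, 1 CPM added to each side) for the 20 highest genes outside the gene lists and the 10 lowest genes of all, by the ratio that held in all 3 libraries, with 1 symbol per library. KAP11.1 stands at 6.71 to 8.01 and FABP7 at 2.84 to 5.04, whereas KRT27 stands at -5.45 to -4.38.

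Of 23 transcription factors listed for the shaft, 19 had a row and 10 reached 10 CPM on either side in all 3 libraries. Of these 10, 7 were higher and 0 lower in all 3, beside 8.35% and 11.6% of the 5380 genes that did so. DLX5 was lower in anagen. The list had a median log2 of 1.83, 2.06 and 2.60 beside the all-gene medians above. HOXC13, a homeobox activator of hair keratin genes, stood at 121 in anagen, 239 in catagen and 121 in telogen, against 8.31, 10.2 and 4.84 CPM (log2 3.72, 4.42 and 4.39). LEF1, which carries WNT signals to DNA, had 3.48, 3.97 and 4.90, MSX1 3.27, 4.998 and 5.10 and MSX2 2.62, 3.31 and 3.56. FOXN1, the gene of the nude mouse, stood at 229.8, 239 and 255 against 17.4, 18.6 and 9.85 CPM. DLX3 (1.35, 2.01 and 1.65) and TRPS1 (1.83, 2.11 and 1.44) were the other members higher in each library, while HR, a corepressor of the hair cycle, had only 0.49, 0.12 and 0.05.

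To set such levels against free RNA, cells with at least 1500 UMIs were thinned to that number, and the share with a UMI was compared with that in cells with endothelial markers. This left out 7 catagen and 4 telogen cells of those chosen and 1 and 2 endothelial marker cells, so 230, 79 and 61 chosen cells stood against 55, 14 and 33. Median depths before thinning were 5621, 8158 and 12539 UMIs against 4144, 2503 and 4484 over all cells of both kinds. HOXC13 was then seen in 16.5%, 29.1% and 14.8% of the chosen cells of anagen, catagen and telogen and in 1.82%, 0% and 3.03% of endothelial marker cells (unthinned 50.4%, 79.1% and 70.8% of the chosen cells). LEF1 was seen in 27.4%, 29.1% and 24.6% against 1.82%, 0% and 0%, and HEPHL1 in 63.9%, 73.4% and 39.3% against 1.82%, 0% and 0%. A count of 0, with 3 counts as the limit, allows a share of up to 21.4% in 14 catagen and 9.09% in 33 telogen cells, and the exact upper limits are 23.2% and 10.6%. ID1, a BMP target described below, was seen in 83.0%, 77.2% and 82.0% against 45.5%, 35.7% and 72.7%. Its 95% intervals overlapped in telogen, at 70.0 to 90.6% and 54.5 to 86.7%. Those of HOXC13 overlapped in telogen too, at 6.98 to 26.2% and 0.0767 to 15.8%. In catagen the intervals of HOXC13 and of LEF1 overlapped, each at 19.4 to 40.4% and 0 to 23.2%. KRT14, an outer root sheath keratin, was seen in 61.7%, 24.1% and 59.0% of the chosen cells but also in 63.6%, 57.1% and 72.7% of the endothelial marker cells. Its level in single chosen cells reached 24346 CPM, in anagen.

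Of 17 genes listed for shaft structure and enzymes, 13 had a row and 7 reached that level in all 3 libraries. Of these, 5 were higher and 1 lower in all 3, beside 8.35% and 11.6% of all genes (median log2 2.52, 2.66 and 3.78). With no minimum level the list median turned to -0.0085 in anagen and -0.12 in telogen. DSG4, the desmoglein of the hair shaft, stood at 116 in anagen, 180.4 in catagen and 101 in telogen, against 2.00, 1.55 and 0.586 CPM (log2 5.28, 6.15 and 6.01). HEPHL1, a copper-dependent ferroxidase, stood at 826, 1303 and 414 against 27.9, 19.3 and 5.06 CPM and was seen in 85.7%, 95.3% and 90.8% of the cells. SELENBP1, which oxidizes methanethiol, was the most abundant of the list, at 1568, 2759 and 1580.2 against 319.9, 71.3 and 114 CPM. LAP3, leucine aminopeptidase, had log2 ratios of 2.76, 2.66 and 3.19, with 48.9% of its telogen UMIs in 1 cell. GPRC5D, an orphan receptor of hair-forming cells, had 5.65, 6.25 and 6.90, although in telogen 1 cell held 85.7% of its UMIs. ELOVL4, which lengthens fatty acids of the skin barrier, was the lower one, at -2.83, -2.59 and -2.45.

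Of 12 other hair shaft keratins, 8 (KRT31, KRT33A, KRT33B, KRT37, KRT38, KRT81, KRT83 and KRT86) had no row and were not analysed here. KRT36 stood at 35.8 in anagen, 58.7 in catagen and 183 in telogen, against 0.483, 0.276 and 0.205 CPM. KRT34 stood at 70.6, 45.8 and 14.3 against 0.508, 0.827 and 0.146 CPM, and 1 cell held 53.4%, 96.9% and 92.9% of its UMIs. KRT84 was at 10.6, 24.3 and 2.04 CPM. The 8 genes with a KRTAP symbol, further keratin-associated proteins, summed to 54.7, 31.5 and 16.3 CPM, against 0.186, 0.846 and 0.0683 CPM in the remaining cells. Of these genes 3, 6 and 6 were at 0 UMIs in the chosen cells. The 1, 2 and 1 genes that reached 10 CPM on either side were all higher. Among 6 cuticle genes with a row, VSIG8 stood at 212, 77.3 and 209 against 6.32, 8.38 and 5.02 CPM, with 82.4% of the telogen UMIs in 1 cell.

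Ligands, targets and inhibitors of the growth pathways did not share a direction. Of 34 WNT pathway genes with a row, 10 reached 10 CPM in all 3 libraries, of which 4 were higher and 2 lower in each, beside 8.35% and 11.6% of all genes. The ligands WNT6 (log2 1.63, 2.12 and 2.48) and WNT10A (2.06, 2.46 and 2.40), CTNNB1, which encodes beta-catenin (1.41, 1.87 and 1.15), and the feedback inhibitor NKD1 (1.80, 1.17 and 2.06) were higher, and the ligand WNT7B (-2.69, -4.68 and -3.99) and the secreted inhibitor SFRP1 (-2.69, -5.36 and -2.52) were lower. Of 19 BMP pathway genes (10 at that level), the target ID1 was higher, at 2405 in anagen, 2149 in catagen and 3074 in telogen against 727, 471 and 463 CPM, as was the ligand BMP4, at 92.9, 196 and 54.1 against 19.0, 23.0 and 6.25 CPM. The BMP and activin antagonist FST was lower, at 14.5, 1.43 and 1.02 against 170.4, 81.3 and 33.4 CPM. In the NOTCH list of 16 genes (6 at that level), 0 were higher in all 3 libraries and JAG2 and LFNG were lower, and in the hedgehog and EDA list of 14 (1 at that level), the receptor PTCH1 was higher (1.28, 1.84 and 2.61). Of 31 genes for FGF, EGF and IGF ligands, receptors and binding proteins (13 at that level), FGF22 was higher (2.47, 2.59 and 2.38) and 8 were lower, AREG among them (-2.92, -4.10 and -2.76).

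The counts for junctions and redox enzymes stand beside 8.35% of all genes higher and 11.6% lower in all 3 libraries. GJA1, which forms gap junctions, was the 1 of 15 junction genes at 10 CPM in all 3 libraries that was higher in each, and 3 were lower in all 3. It stood at 299.5, 397 and 342 against 97.2, 111 and 77.0 CPM, while DSP, the desmosome linker and the most abundant of them, had log2 ratios of 0.16, -0.23 and 0.24. Among 11 such genes of cysteine and redox metabolism, GPX4, TXNRD1 and P4HB were higher in all 3 and 4 were lower. P4HB, a protein disulfide isomerase, stood at 567, 659 and 458 against 218, 207 and 195 CPM.

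Most genes listed for the neighbouring layers were lower. In the inner root sheath list, 5 of the 6 genes at 10 CPM in all 3 libraries were lower in each, and in the upper follicle list 1 of 2. All 4 keratins that mark the inner root sheath were low: KRT71 stood at 44.5 in anagen, 27.2 in catagen and 13.3 in telogen, against 649.6, 684 and 353 CPM, KRT25 had log2 ratios of -3.70, -4.16 and -4.68, KRT27 -4.38, -5.45 and -4.83 and KRT28 -2.66, -3.38 and -4.26, and 0 chosen cells held 1% or more of them. In the basal and outer root sheath list, 9 of 11 genes were lower in all 3 libraries, beside 11.6% of all genes (median log2 -2.33, -3.51 and -2.62), with KRT17 at -2.76, -3.37 and -2.97 (1 cell held 73.2% of its catagen UMIs). In the suprabasal epidermis list, 8 of the 8 at 10 CPM in all 3 libraries were lower in each (median -2.78, -3.25 and -2.72), KRT1, KRT10 and the protease inhibitor SPINK5 among them. The other genes named by the rule were the protease KLK10 (-3.15, -4.02 and -3.75), the antimicrobial S100A7 (-3.03, -5.20 and -3.87), the water and glycerol channel AQP3 (-2.96, -4.64 and -3.06) and the ceramide enzyme DEGS1 (-2.85, -3.48 and -2.81).

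Keratins of these layers were not absent. They reached 1% of UMIs in 25 chosen cells of anagen, 2 of catagen and 3 of telogen, with KRT14 and KRT5 at that level in 19, 1 and 1 cells and KRT1 and KRT10 in 4, 1 and 2. With those cells left out, a setting chosen after seeing the data, the number of higher genes was 781, 1247 and 864 and of lower genes 1028, 1264 and 1160.

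Of 6 mitosis genes at 10 CPM in all 3 libraries, TPX2 and UBE2C were lower in each, beside 11.6% of all genes. At 10 CPM or more, 8 of 9 were lower in anagen, 6 of 6 in catagen and 2 of 7 in telogen, beside 16.6%, 19.3% and 17.9% of all genes. CENPF, a kinetochore protein and the most abundant of the mitosis list, stood at 69.2 in anagen, 60.1 in catagen and 89.8 in telogen, against 288, 271 and 165 CPM. The list median was -2.06, -2.37 and -0.60. CENPF did not reach 2-fold in telogen, but this leaned on 1 cell, which held 57.8% of its 83 UMIs in telogen cells at 1 to 2%. With a threshold of 0.5% of UMIs the list median was -1.17 in anagen and -0.75 in catagen. The DNA replication list had a median of -1.23, -2.01 and -1.41, with 6 of 8 lower in all 3. Of 15 immediate early and stress genes at 10 CPM in all 3 libraries, 4 were lower in each, beside 11.6% of all genes. These were ATF3 (-2.44, -3.38 and -1.77), FOSB, DUSP1 and ZFP36, while the chaperone HSPA8 had 0.90, 1.73 and 0.99. In telogen 11 of the 15 were neither higher nor lower, and the list median was -1.19, -1.33 and -0.30.

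Markers of cells from outside the epithelium were summed by list. The 6 endothelial markers summed to 4.84, 0 and 0 CPM in the chosen cells, against 13.8, 6.67 and 8.68 CPM in the remaining cells. The 6 immune markers summed to 15.5, 2.86 and 6.12 CPM, nearly all CD74, and 4, 5 and 5 of them were at 0. Of 6 melanocyte markers 4 were at 0 in each library, and the sum was 8.23, 8.59 and 18.4 CPM against 9.35, 37.1 and 8.60 CPM, led by PMEL or MITF. PMEL passed 2-fold in telogen, at 12.2 against 2.997 CPM (log2 1.73). The part of melanocyte or mesenchymal RNA in the results was not tested. The 8 mesenchymal markers summed to 113, 15.7 and 80.6 CPM against 285, 408 and 263 CPM, led by TAGLN, and COL1A2 was at 0 in all 3.

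**Figure D3:**
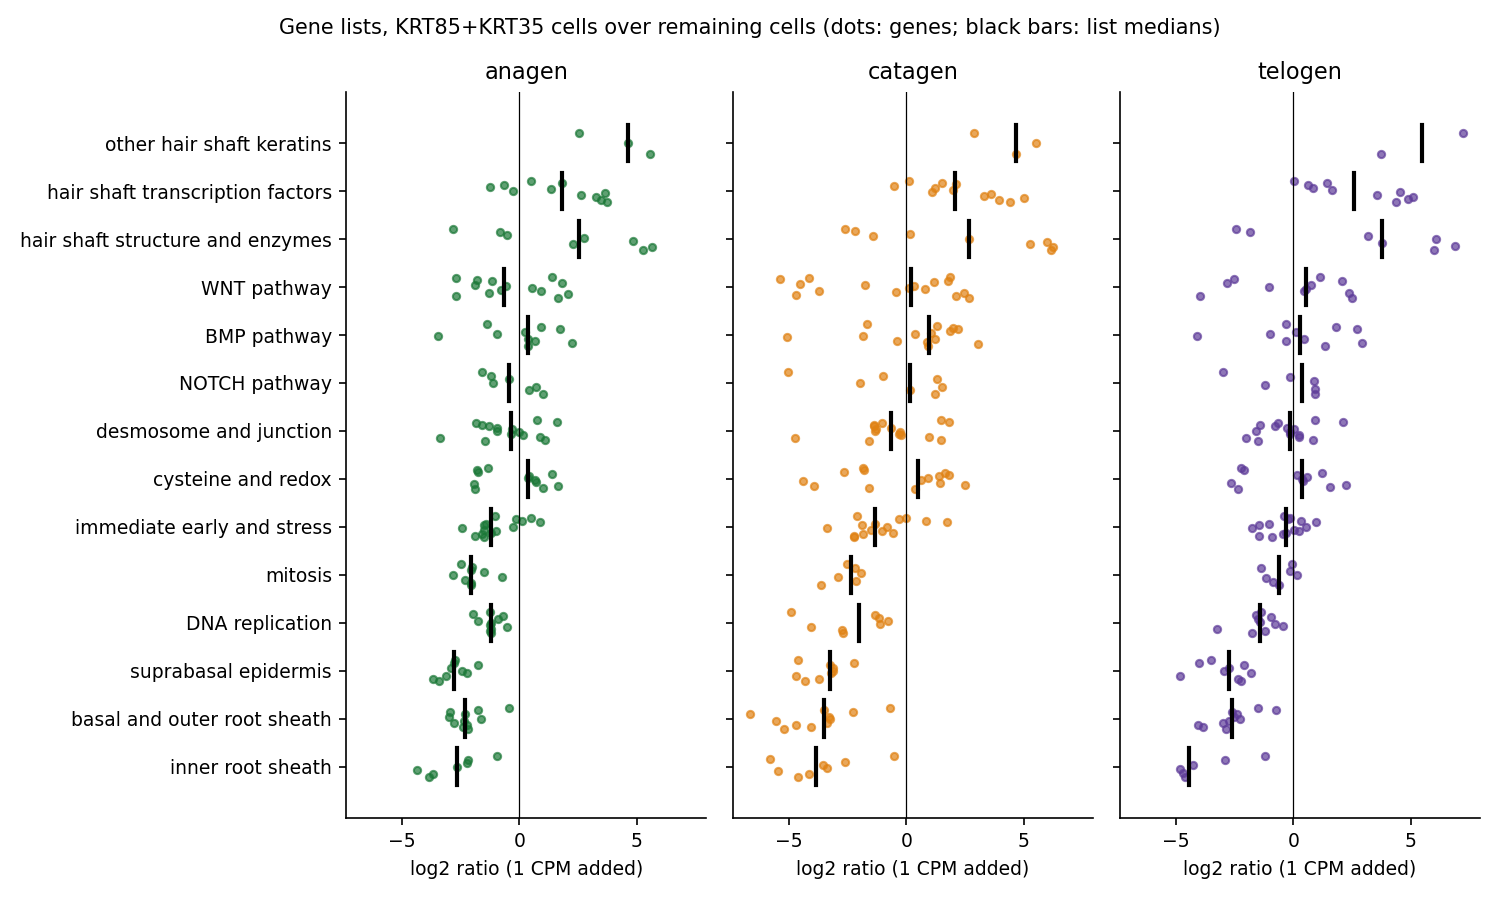
Log2 ratio of KRT85+KRT35 cells over remaining cells (x axis, 1 CPM added) for the genes of 14 lists at 10 CPM or more on either side, with 1 dot per gene, black bars at list medians and 1 panel per library. Medians of the hair shaft transcription factors stand at 1.83, 2.06 and 2.60, and those of the inner root sheath list at -2.66, -3.85 and -4.44.

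The cells most like these in lineage, those of the inner root sheath, were taken from the same libraries as cells with at least 1% of UMIs from KRT71, KRT25, KRT27 and KRT28 (218, 148 and 80 cells). Log2 ratios over this layer used totals that leave out these keratins as well as KRT85 and KRT35. Levels in CPM kept the total defined above, so the ratios differ somewhat from those of the printed levels. Described were 1774 genes at 50 CPM or more on either side in every library, not the 10 CPM used above, with these keratins left out. Of these, 171 were higher in the KRT85+KRT35 cells in all 3 libraries (9.64%) and 77 lower (4.34%). HEPHL1 stood at 11.115, 3.22 and 1.20 CPM in inner root sheath cells, against 826, 1303 and 414 CPM. SELENBP1 stood at 95.1, 2.57 and 1.20 CPM there and FABP7 at 16.9, 0.644 and 0.601 CPM. GPRC5D and EFHD1 were at 0 UMIs there in all 3 libraries, and KRT36 too.

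Of the 20 leading genes above, 8 were among the 10 genes with the largest ratios over this layer, where list genes were not set apart. These 10 were SPINK6, KAP11.1, IL1F10, LY6G6D, ALOX15B, RNF34, HEPHL1, GPRC5D, EFHD1 and NIBAN1. Both rankings used the same chosen cells and the same floor in them, and the inner root sheath cells are part of the remaining cells. The overlap was therefore largely built in and is no separate evidence. RNF34 had log2 ratios of 6.36, 6.09 and 6.21 over the inner root sheath and NIBAN1 5.50, 6.99 and 7.08. Not all shaft regulators followed: DLX3 stood at 550.0, 547 and 552 CPM in the inner root sheath against 349, 304 and 167 CPM in the chosen cells (log2 -0.73, -0.95 and -1.79), which passed 2-fold in telogen only, and FOXN1 was present there at 69.2, 84.3 and 76.9 CPM. HOXC13, by contrast, was at 2.47, 4.51 and 1.80 CPM in the inner root sheath. PMP2, a fatty acid carrier, was at 13678, 16202 and 15365 CPM there and at 41.1, 27.2 and 57.2 CPM in the KRT85+KRT35 cells. BMP4 was at 58.0, 167 and 53.4 CPM in the inner root sheath, beside 92.9, 196 and 54.1 CPM in the chosen cells.

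The chosen cells varied along their own KRT85 and KRT35 share, which is what chose them, so this too is a description. In cells under the threshold, at 0.2 to 0.5%, CENPF stood at 1010.2, 1374 and 412 CPM in anagen, catagen and telogen. At 2 to 5% it was 29.3, 7.48 and 10.5 CPM, and 0 of the 8 anagen and 0 of the 8 catagen cells at 5% or more had a UMI of it. TOP2A, which untangles DNA in mitosis, stood at 378, 609 and 102 CPM at 0.2 to 0.5% and at 26.2, 0 and 6.27 CPM at 2 to 5%. Telogen did not follow this order throughout. There CENPF stood at 165.6 CPM and TOP2A at 124 CPM at 1 to 2%, against 114 and 98.7 CPM at 0.5 to 1%, and 1 cell held 57.8% and 77.4% of their UMIs at 1 to 2%.

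SELENBP1, FABP7, HOXC13 and ID1 had lower levels at 5% or more than at 2 to 5% in anagen and catagen. SELENBP1 stood at 2172, 3332 and 6289 CPM at 0.5 to 1%, at 1189, 1749.7 and 642 CPM at 2 to 5%, and at 129 and 27.4 CPM in the anagen and catagen cells at 5% or more. HOXC13 stood at 128 CPM at 2 to 5% and 46.9 CPM (4 UMIs) at 5% or more in anagen, and at 292 and 68.5 CPM (5 UMIs) in catagen, with 2 to 5% its highest band in both. ID1 was at 2667, 2509 and 3520.1 CPM at 2 to 5%, its highest band in each library, and at 892 and 1028 CPM above that.

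The cells with 5% or more, 8 in anagen, 8 in catagen and 0 in telogen, had higher levels of several genes, chosen after their values were seen. SPINK6 was seen in 7 of the 8 anagen cells, with a lowest, median and highest level per cell of 0, 11469.9 and 25218 CPM, and in all 8 catagen cells, at 1432, 5277 and 8746 CPM. At 2 to 5% it was seen in only 18 of 77 anagen, 4 of 28 catagen and 12 of 27 telogen cells. LY6G6D was seen in all 8 cells of either library at 5% or more, with a median of 4607 CPM in anagen and 5714 CPM in catagen, against 50.1, 66.7 and 217 CPM at 2 to 5%.

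LAP3, DSG4, FOXN1, GPRC5D and KAP11.1 had the same order. The median level of LAP3 per cell was 3224 and 1873 CPM at 5% or more in anagen and catagen, against 289 and 190.0 CPM at 2 to 5%. GPRC5D was seen in 7 and 8 of 8 cells, and at 2 to 5% in 11 of 77 and 4 of 28. FOXN1 had medians of 986 and 1380.1 CPM per cell, against 165 and 159 CPM, and KAP11.1 was seen in 7 and 8 of 8, against 27 of 77 and 12 of 28. The top band holds under 20 cells in either library. Below it, SPINK6 was seen in 12 of 145, 1 of 50 and 4 of 38 cells at 1 to 2%, and KAP11.1 in 19, 5 and 5, against 27, 12 and 16 of the 77, 28 and 27 cells at 2 to 5%. Sums in these bands leaned on single cells: in anagen 1 cell held 49.8% of the SPINK6 and 58.2% of the GPRC5D UMIs at 2 to 5%, and 1 cell 81.5% of SPINK6 and 1 cell 68.4% of KAP11.1 at 1 to 2%. Median depth also moved with the share, from 4063, 7048 and 11631 UMIs at 1 to 2% to 8727, 9665 and 13211 UMIs at 2 to 5%, and its part was not tested.

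The telogen cell with the most UMIs, 74171 against a median of 12539, had high counts of these genes. Its share of KRT85 and KRT35 was 2.49%. It held the most UMIs of any chosen telogen cell for KAP11.1, SPINK6, GPRC5D, VSIG8, KRT34, LY6G6D, LAP3, FOXN1, IL1F10 and DSG4, and not for KRT1, KRT10 or KRT36. It alone gave 85.7% of the telogen UMIs of SPINK6, 85.7% of GPRC5D, 79.9% of KAP11.1 and 82.4% of VSIG8. Without it the levels at 2 to 5% in telogen were 231 CPM for SPINK6, 41.9 CPM for GPRC5D, 123 CPM for KAP11.1, 404 CPM for LY6G6D, 699 CPM for LAP3 and 283 CPM for FOXN1, still above those at 1 to 2%. Whether its depth came from more than 1 cell in a droplet was not tested. The other libraries had deep cells too. The deepest chosen cell held 93401 UMIs in anagen, against a median of 5621, and 23751 in catagen, against 8158. The deepest cells gave 4.41%, 3.31% and 7.40% of the UMIs of the chosen cells in anagen, catagen and telogen.

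**Figure D4:**
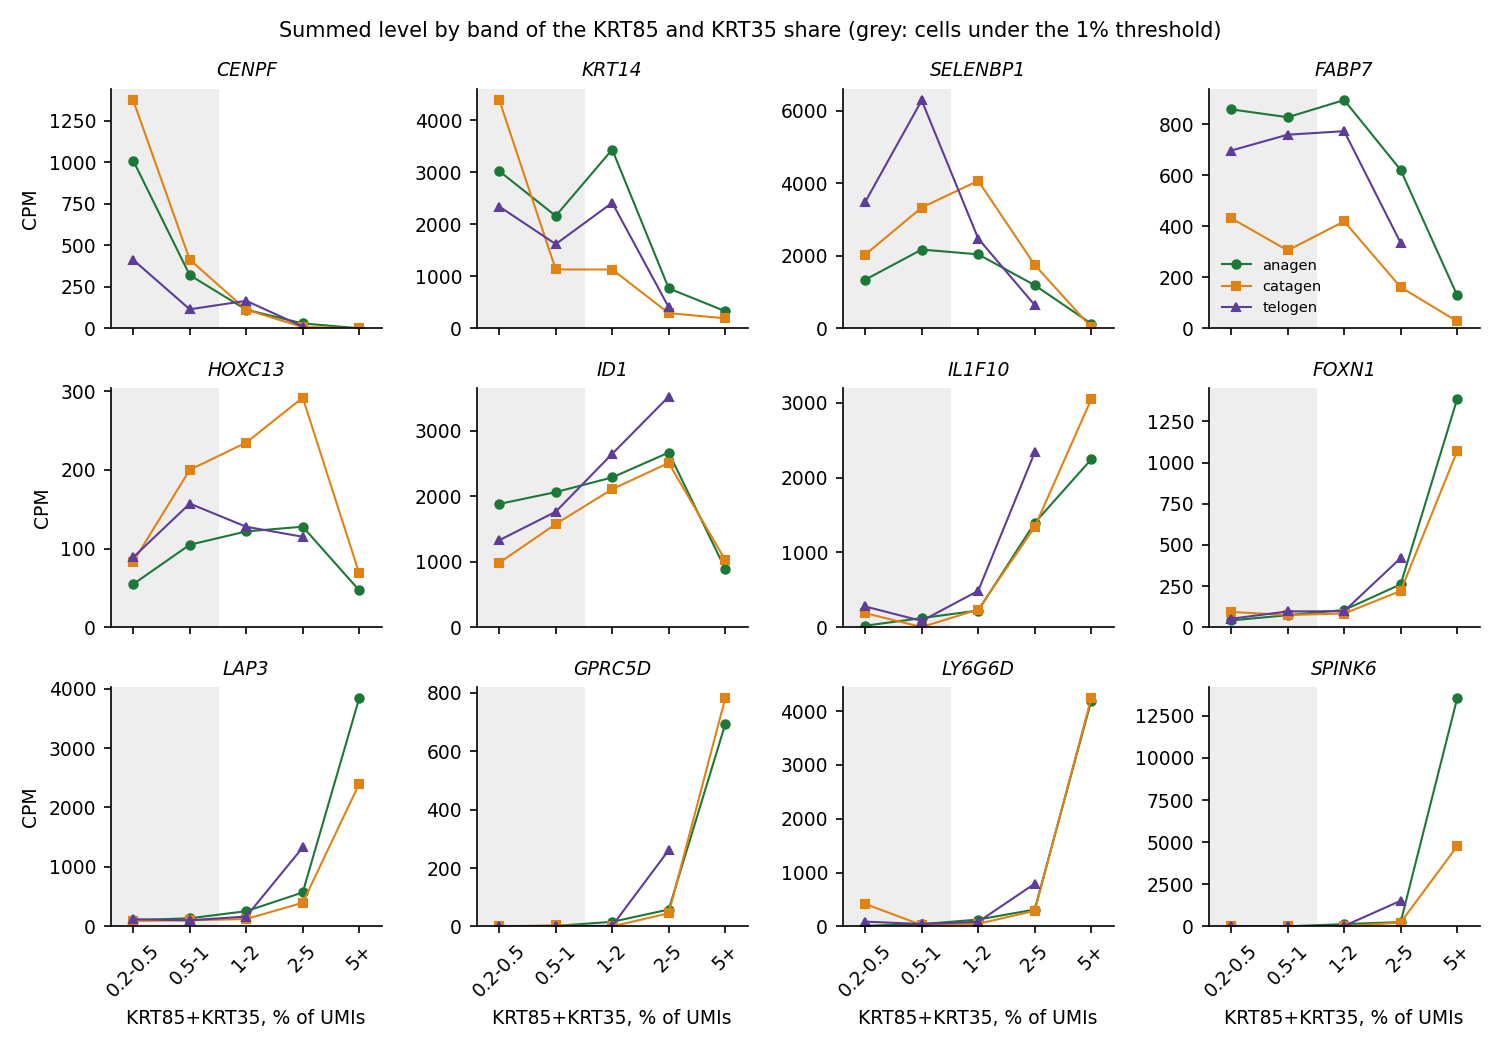
Summed level (y axis, CPM, linear) of 12 genes by the share of UMIs from KRT85 and KRT35 (x axis, 5 bands), with 1 line per library and cells under the 1% threshold on grey. CENPF is highest at 0.2 to 0.5% in each library, whereas SPINK6 reaches 13532 CPM in anagen and 4756 CPM in catagen at 5% or more, where telogen has no cells.

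Last, the KRT85+KRT35 cells of catagen and telogen were set against those of anagen, with genes at 50 CPM or more in either. Of 2320 genes, 80 were higher in catagen (3.45%) and 76 lower (3.28%), and in the remaining cells 64 (2.98%) and 84 (3.91%) of 2148 were. In telogen 48 of 2195 were higher (2.19%) and 132 lower (6.01%), against 82 (3.96%) and 167 (8.06%) of 2071 in the remaining cells. Both comparisons share the anagen cells. Among the 8 shaft transcription factors at that level, 0 were higher or lower in catagen, and the log2 ratio to anagen was 0.05 for LEF1, 0.06 for FOXN1 and 0.97 for HOXC13 (interval 0.69 to 1.27, computed like the others below without the added CPM).

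The highest ratios in catagen included those of SDF2L1 and PDIA4, proteins of the endoplasmic reticulum. SDF2L1 was at 109 CPM in anagen and 392 CPM in catagen (log2 1.83, 1.58 to 2.103), while the remaining cells gave -0.47. PDIA4, a disulfide isomerase, was at 35.8 and 129 CPM (log2 1.82, 1.39 to 2.31), against 0.42 in the remaining cells, and the related PDIA3 had 1.52 against 0.50. HES1, a target of NOTCH, was at 15.5 and 60.1 CPM (log2 1.89, 1.26 to 2.67; remaining cells 0.13).

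For 4 other genes higher in catagen the remaining cells gave a ratio of the same sign, past 2-fold for SLC25A6 and COA3. SLC25A6, an ADP/ATP carrier, had a log2 ratio of 1.93 against 1.16, COA3, an assembly factor of respiratory complex IV, 1.62 against 1.31, the AP-1 subunit JUNB 1.63 against 0.99, and CCDC18 1.69 against 0.79. At the 5% threshold COA3 turned to -0.35, and SLC25A6 (0.22) and CCDC18 (0.21) no longer passed 2-fold. KAP11.1 had 1.77 (1.58 to 1.98), against 0.56 in the remaining cells. The 8 catagen cells with a KRT85 and KRT35 share of 5% or more held 303 of its 433 UMIs, and in cells at 1 to 2% its level was lower in catagen, at 19.6 (7 UMIs) against 92.5 CPM in anagen, where 1 cell held 68.4% of the 95 UMIs. It was seen there in 5 of 50 catagen and 19 of 145 anagen cells. SELENBP1 had the opposite sign in the 2 sets of cells, with 0.81 in the chosen cells and -2.15 in the remaining cells, as did MSX1 (0.67 and -1.06).

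Among genes at 50 CPM or more, 0 of 7 of the suprabasal epidermis list were lower in catagen, and of the mesenchymal list TAGLN was lower. POSTN, a matricellular protein, was at 138 CPM in anagen and 7.16 CPM (5 UMIs) in catagen, while in the remaining cells its ratio was 0.07. IL1R2, a decoy receptor for interleukin 1, was at 59.5 CPM and at 3 UMIs in catagen (log2 -3.51, -6.09 to -2.21), against -0.02 in the remaining cells. At the 5% threshold the ratio of IL1R2 was 3.88, from 1 UMI in catagen and 0 in anagen, so no direction can be read there. S100A7 had -6.63 (-9.21 to -5.38, 3 UMIs in catagen), AQP3 -3.75, the chemokine CCL20 -3.69 and IGFBP3 -4.57 (-10.62 to -2.80, 1 UMI in catagen). The protease ADAMTS1 had -3.36, and at the 5% threshold it had 0 UMIs in both libraries. S100A7 and AQP3 were also lower in the remaining cells of catagen than in those of anagen. Over the remaining cells, the chosen cells of anagen and catagen had log2 ratios of -3.03 and -5.20 for S100A7 and -2.96 and -4.64 for AQP3. Of 6 basal and outer root sheath genes, 5 were lower, beside 3.28% of all genes, with KRT14 at 2078 and 712 CPM, whereas in the remaining cells KRT14 had a log2 ratio of 0.14. In catagen 1 cell held 73.1% of the 405 KRT14 UMIs found in cells at 1 to 2%. The cells that held 1% or more of keratins of any neighbouring layer were 25 in anagen and 2 in catagen, of which 19 and 1 did so by KRT14 and KRT5. With all of these left out the catagen cells had 85 higher and 69 lower genes.

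In telogen the highest ratio was that of KRT36, a hair keratin. It stood at 35.8 CPM in anagen, 58.7 CPM in catagen and 183 CPM in telogen (log2 telogen over anagen 2.32, 1.95 to 2.76). UMIs of it were seen in 42 of 230, 20 of 86 and 22 of 65 cells. The ratio was 2.11 without the top cells, the cell that held most UMIs of the gene in each library. In the remaining cells KRT36 was at 0.483, 0.276 and 0.205 CPM. FABP5, a fatty acid carrier of keratinocytes, was at 148 and 671 CPM (log2 2.17, 1.98 to 2.38; remaining cells 0.83). LCMT1, which methylates protein phosphatase 2A, had 1.95 (1.40 without the top cells), SAP18 1.32 and the mitochondrial chaperone TIMM8B 1.30.

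KRT1, KRT10 and MT2A owed much of their ratio to 1 cell. KRT1 was at 437 and 1326 CPM (log2 1.60), but 1 telogen cell held 63.4% of its UMIs, and without the top cells the ratio was 0.35. It turned to -0.27 with cells rich in keratins of other layers left out and to -0.12 with the mean of the cells' CPM. KRT10 had 1.64 and, without the top cells, 0.67, and the metallothionein MT2A had 1.41 and 0.92.

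Among genes lower in telogen was ANO3, an anoctamin membrane protein. It was at 61.5 CPM in 22.6% of the anagen cells and 42.9 CPM in catagen, against 2.55, 1.16 and 0.361 CPM in the remaining cells, and 1 UMI was seen in telogen (log2 telogen over anagen -4.95, -11.23 to -3.41). With a threshold of 0.5% of UMIs the ratio was -2.57. IGFBP3 was at 56.6 CPM in anagen and 0 UMIs in telogen, which is at least 18.5-fold lower with 3 counts over the telogen cells as the floor. TENT5A, a nucleotidyltransferase, had -2.64 (-3.55 to -1.99; remaining cells -1.03), the transcriptional coregulator CITED2 -2.84 (-1.39), ADAMTS1 -3.50 (-1.99), CCL20 -3.09 (-1.86) and the Golgi protein GOLIM4 -2.39 (-1.06). CYP4X1, a cytochrome P450, was the lowest gene in both comparisons, but 99.7% of its 292 anagen UMIs came from 1 cell, and it was seen in 2 anagen, 0 catagen and 0 telogen cells. HEPHL1 was at 826 and 414 CPM (log2 -0.99) and DLX3 at 349 and 167 CPM (-1.06), with -2.25 and -1.35 in the remaining cells.

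**Figure D5:**
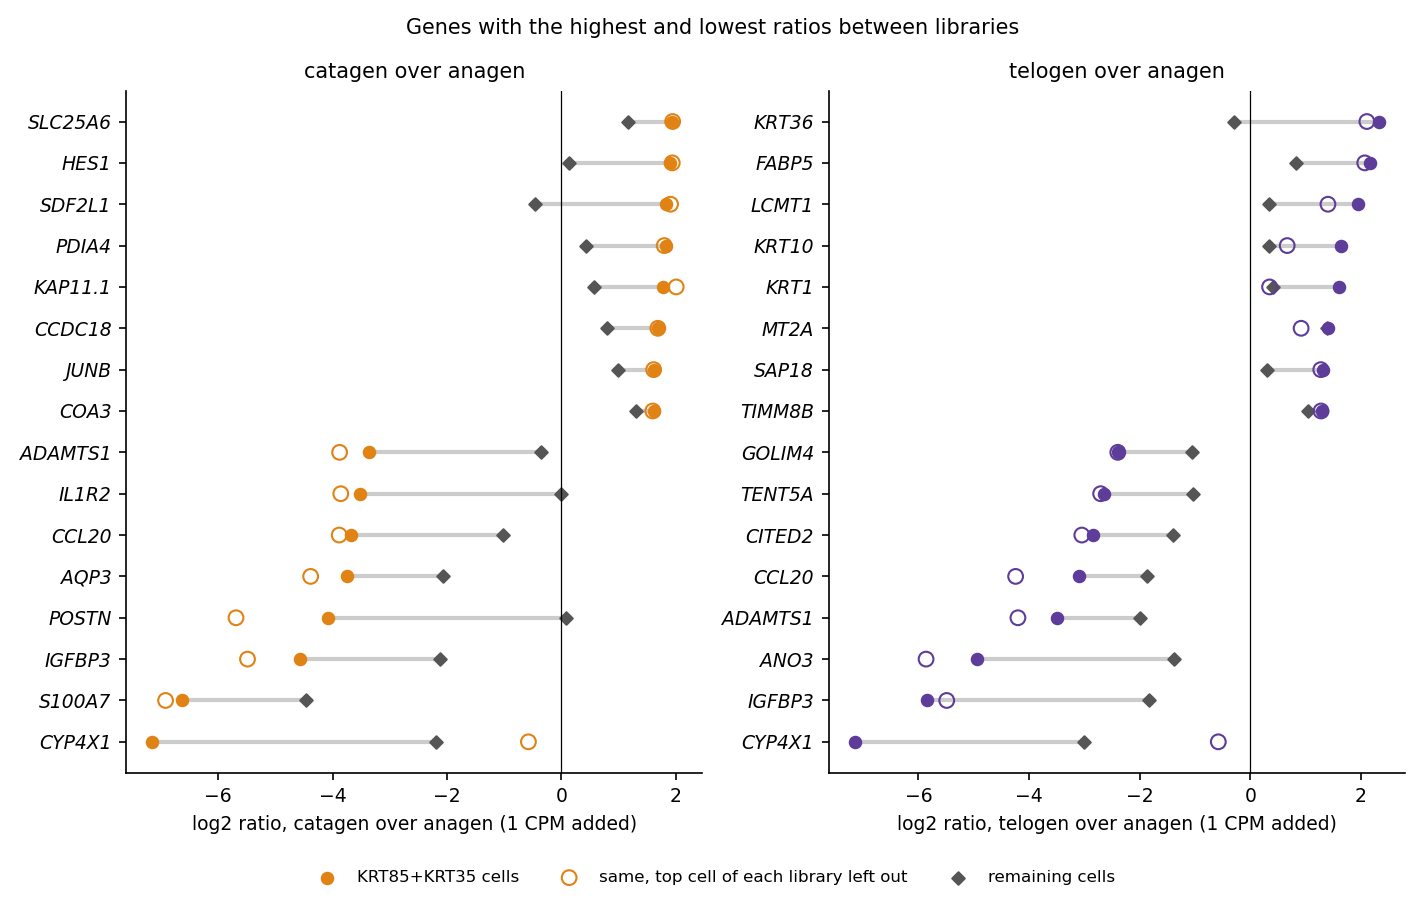
Log2 ratio of catagen over anagen (left) and telogen over anagen (right, x axes, 1 CPM added) for the 8 highest and 8 lowest genes in KRT85+KRT35 cells. Filled circles are those cells, open circles the same with the cell that holds most UMIs of the gene left out of each library, and diamonds the remaining cells: KRT36 keeps 2.11 of 2.32 in telogen, whereas CYP4X1 moves from -7.15 to -0.58.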

How the data were processed

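The authors deposited, per library, the raw counts of UMIs per gene and cell barcode as Cell Ranger wrote them, without normalization. The Cell Ranger version in the file headers is 4.0.0 (anagen), 3.1.0 (catagen) or 6.0.2 (telogen), while the submitters' processing notes name 2.1.1. The genome build is not given in the sources used here. Cells with 200 or more genes were kept (13, 62 and 71 left out), and doublets were left in. Of 26924 genes, 15765 carry a symbol.

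UMIs were summed over cells in Python 3.11.15 (numpy 2.4.6, scipy 1.17.1, pandas 2.3.3). Intervals are at 95%, exact apart from the Newcombe intervals of differences between shares, and cover counting error only. No cell reached a share of 10%, so the planned bands above 5% became 1 band, and bands under the threshold were added. The statistics were run on simulated counts drawn independently for each gene, as the intervals assume. The simulated counts had no UMIs gathered in single cells, so they cannot show how the intervals behave for genes carried by few cells. Named were, of genes with a symbol and 50 CPM or more, the 20 highest outside the lists and the 10 lowest of all by the ratio nearest to 0 over the 3 libraries, the 8 highest and 8 lowest per stage comparison, the 10 highest against inner root sheath cells, and genes of 25 lists. Examples from the lists, the genes in the bands and the genes singled out in the stage comparisons beyond the 8 were chosen after their values were seen. The members, the rule and the lists were chosen with earlier results of these data known.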

Additional observations from a re-analysis of the deposited data

Results flagged for a closer look

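DLX5, a homeobox gene of the shaft list, went opposite ways in 2 libraries. Its log2 ratio of KRT85+KRT35 cells over remaining cells was 1.24 in catagen (37.2 against 15.2 CPM) and -1.24 in anagen (7.26 against 18.5 CPM), and the difference was not tested. In catagen 1 cell held 42.3% of its 26 UMIs, and without that cell the log2 ratio was 0.49.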

How the results depend on the processing

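Shares moved with the threshold, to 3.53%, 1.18% and 0.731% at 0.5% of UMIs and to 0.0667% in anagen and 0.0663% in catagen at 5%, where telogen had no cells and gave no value. With 1000 genes per cell they were 1.38% in catagen and 0.665% in telogen, and with the smallest anagen total of UMIs required, 0.968% in catagen. Against the remaining cells, in the order anagen, catagen and telogen, higher genes numbered 480, 596 and 513 by median-of-ratios scaling, 425, 703 and 469 with 10 CPM added, and 477, 599 and 451 where the whole 95% counting interval had to pass the fold. Lower genes numbered 648, 622 and 476 by that interval, 2123, 3226 and 2550 with no minimum level, 596 in anagen and 604 in telogen with 10 CPM added, and 2548 in anagen and 2658 in catagen at the 5% threshold. Higher genes numbered 1399 in telogen by the mean of the cells' CPM, 1288 in telogen with no minimum level and 1576 in anagen at the 5% threshold. For catagen over anagen, higher and lower genes numbered 447 and 393 at the 5% threshold, 123 and 132 by the mean of the cells' CPM, 1530 and 1373 with no minimum level and 26 and 38 by the interval, and 52 were higher with 10 CPM added. For telogen over anagen they numbered 1107 and 1687 with no minimum level and 23 and 38 by the interval, and 220 were lower by the mean of the cells' CPM and 83 with 10 CPM added. Settings also differ in how many genes or cells they leave, and the causes of these changes were not tested. In the catagen over anagen split, median-of-ratios scaling gave 40.7% higher calls in place of 51.3%, and in telogen over anagen 38.7% in place of 26.7%.

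Reversed at the 5% threshold, with 8 cells a library, were COA3 (-0.35) for catagen over anagen and RNF34 in catagen over remaining cells (-0.50). IL1R2 for catagen over anagen changed sign there (3.88), but from 1 UMI in catagen and 0 in anagen, so no direction can be read. KRT1 in telogen over anagen turned to -0.12 by the mean of the cells' CPM and to -0.27 with cells rich in keratins of other layers left out, which was chosen after seeing the data. The median of the shaft structure list turned to -0.0085 in anagen and -0.12 in telogen with no minimum level, since genes near 0 then enter. Of the counts and shares, 91 alternative values stayed within the limits set for no change and 45 did not. Of the log2 ratios of named genes over the remaining cells, 564 alternative values stayed within their limits, 485 moved past them and 1 reversed. No paired analysis was possible because each stage has 1 library. The 65 telogen and 86 catagen cells limit the precision: a gene at 0 UMIs in them may stand at up to 3.06 and 4.29 CPM.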
